A study of Mus musculus with 12 samples.

Results

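AP-1 and the other immediate early transcription factors were examined in messenger RNA of the mouse left ventricle under pressure overload and pimobendan. The set was 10 of the 17052 genes in the deposited table, taken by gene symbol: the FOS and JUN family genes Fos, Fosb, Jun, Junb and Jund, the zinc finger gene Egr1, and Atf3, Ier2, Nr4a1 and Myc. All 10 had a row and all 10 entered the test. The study used C57BL/6 mice that had either TAC (transverse aortic constriction, in which a clip narrows the aorta at its arch so that the left ventricle pumps against pressure) or sham surgery without the clip. Surgery was at 8 weeks of age and the left ventricle was taken at 12 weeks. Pimobendan, a calcium sensitizer and inhibitor of phosphodiesterase 3 used in heart failure, was given orally at 1 mg/kg/day for 4 weeks. The groups were TAC+pimobendan, TAC+control, Sham+pimobendan and Sham+control, with 3 mice in each. The labels describe no vehicle for the controls. Every heart was arrested in diastole with KCl after the mouse had been killed under anaesthesia. By its title, the series asked whether pimobendan acts on pressure overload hypertrophy through MAP kinases.

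Immediate early genes are transcribed within minutes of a stimulus, without new protein synthesis, when kinases such as ERK, JNK, p38 and protein kinase A act on factors already bound at their promoters. FOS and JUN proteins pair through leucine zippers to form AP-1, EGR1 binds GC-rich sites, and their messages are unstable and decay soon after the stimulus ends. In heart muscle these genes are known for a brief induction by stretch, adrenergic agonists and acute pressure load, ahead of hypertrophic growth. Ischaemia and stress hormones are known to induce them as well.

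The table gives FPKM, fragments scaled by transcript length and by the mapped fragments of a library, so levels of different genes can be set side by side per length. No counts are given and sequencing depth is therefore unknown. The FPKM of a mouse added up to 593203 to 643478, and between 10809 and 11292 genes reached 1 FPKM. The tissue label matched its markers: 6 heart muscle genes (Myh6, Tnnt2, Tnni3, Actc1, Ryr2 and Actn2) summed to between 28214 and 38468 FPKM, and 3 atrial genes to between 1.59 and 4.68 FPKM. In bulk tissue, fewer cells of a type and less RNA per cell cannot be told apart.

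Egr1 was the most abundant member, with a mean of 203.6 FPKM over the 12 mice, followed by Nr4a1 at 140.2 FPKM. Ier2, Jun, Junb and Fos averaged 78.1, 74.6, 69.2 and 61.3 FPKM. Atf3 and Jund averaged 45.9 and 43.1 FPKM, while Fosb at 4.94 FPKM and Myc at 2.28 FPKM were low. Mice of the same group lay far apart: for every member the ratio of the highest to the lowest TAC+control mouse exceeded the ratio of the highest to the lowest group mean, as the single-mouse plot shows. None of the 10 passed the test in any comparison.

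**Figure D1:**
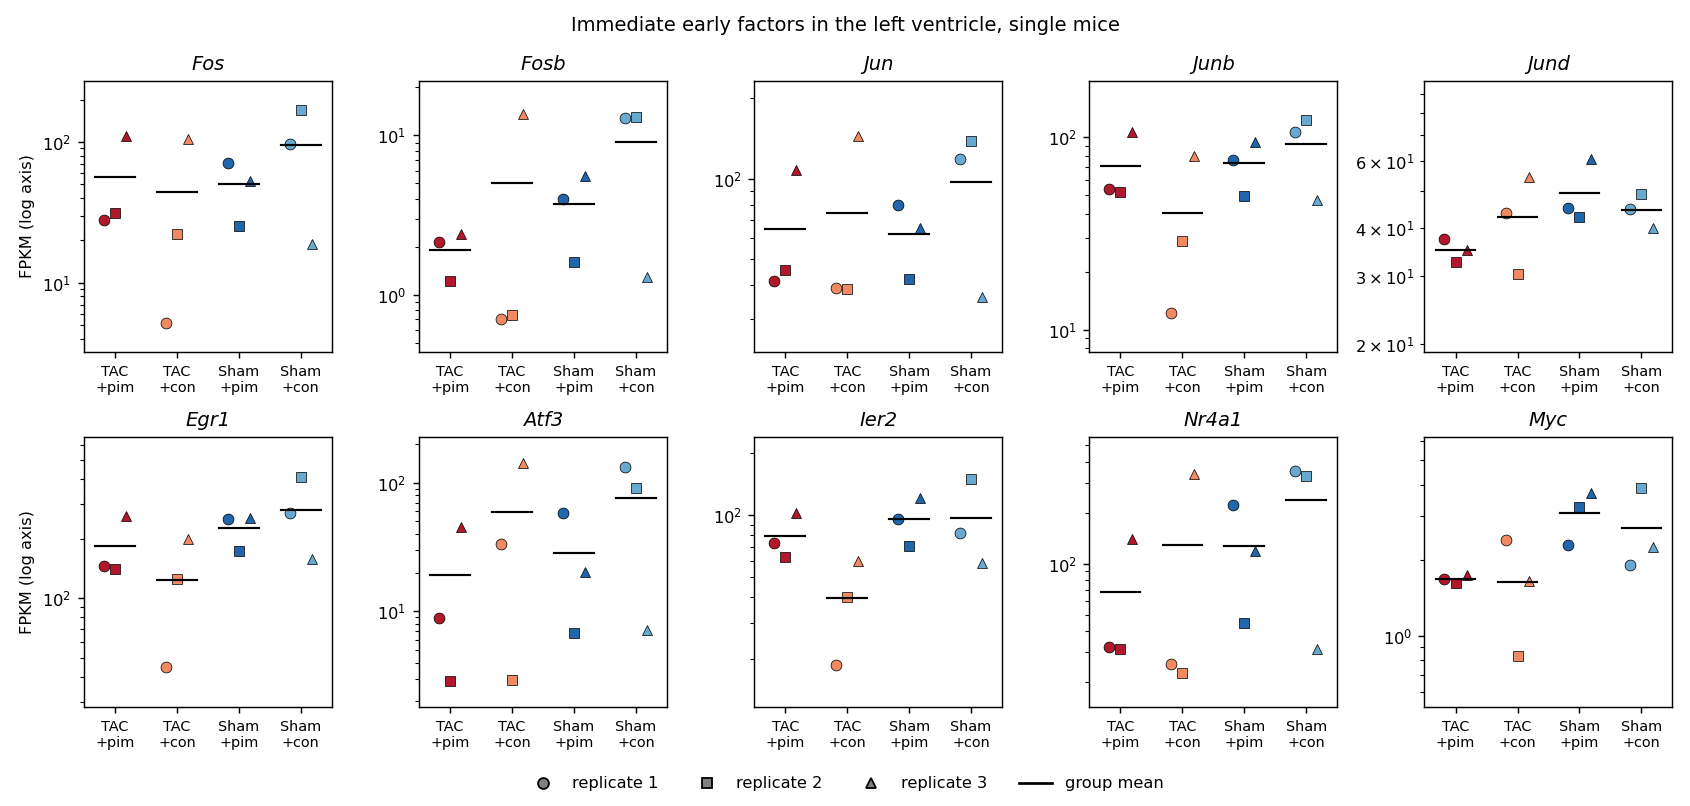
FPKM of the 10 immediate early factors in every mouse, on log axes, by group (pim is pimobendan, con is control). Symbols are mice and lines are group means. Fos in TAC+control mice lay between 5.16 and 105 FPKM, while Jund in all 12 mice lay between 30.4 and 60.7 FPKM.

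Fos encodes the founding FOS protein of AP-1 (NCBI Gene 14281, GRCm38 chr12:85473901-85477269). It had 27.9, 31.3 and 109.8 FPKM in TAC+pimobendan mice and 5.16, 22.3 and 105 FPKM in TAC+control mice. In sham mice Fos had 71.4, 25.4 and 53.0 FPKM with pimobendan and 97.0, 169 and 18.8 FPKM without it. Each group held high and low mice, and all groups overlapped: the third TAC+control mouse stood above every Sham+pimobendan mouse, and the third Sham+control mouse below every TAC+pimobendan mouse. The means were 56.3 ± 46.3 FPKM in TAC+pimobendan, 44.1 ± 53.4 in TAC+control, 49.9 ± 23.1 in Sham+pimobendan and 94.99 ± 75.2 in Sham+control (SD, n = 3 each).

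Fosb, which encodes a FOS family protein whose truncated form is known to build up under repeated stimulation in brain (NCBI Gene 14282, chr7:19302696-19310226), was far lower. It had 2.13, 1.22 and 2.40 FPKM in TAC+pimobendan mice and 0.70, 0.75 and 13.7 FPKM in TAC+control mice. With sham surgery it had 3.98, 1.6 and 5.58 FPKM in pimobendan mice and 12.93, 13.04 and 1.29 FPKM in control mice. Just 3 mice passed 10 FPKM, the third TAC+control mouse and the first and second Sham+control mice, and the other 9 lay below 6 FPKM.

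Jun encodes the main partner of FOS. It had 41.5, 45.4 and 108 FPKM in TAC+pimobendan mice and 39.1, 38.8 and 145 FPKM in TAC+control mice. Sham+pimobendan mice had 79.5, 42.1 and 65.3 FPKM, and Sham+control mice 118, 138 and 36.1 FPKM. The third mouse was the high one in both TAC groups and the low one in Sham+control. The Jun row of the table (NCBI Gene 16476) covers chr4:95047647-95167319 on the plus strand with 5 transcripts, 119673 bases in all, whereas GENCODE places Jun at chr4:95049034-95052222 on the minus strand, 3189 bases long. The long interval takes in the antisense gene Junos (chr4:95051534-95167318, plus strand). The protocol names no strand step, so reads of Jun and Junos cannot be told apart and the level of Jun is uncertain.

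Junb, a JUN family gene whose protein is known to restrain JUN at some targets (NCBI Gene 16477, chr8:84976909-84978748), had 53.7, 51.7 and 107 FPKM in TAC+pimobendan mice and 12.3, 28.9 and 80.3 FPKM in TAC+control mice. Its sham values were 76.5, 49.5 and 94.9 FPKM with pimobendan and 106, 123 and 47.3 FPKM without. The first and second TAC+control mice were the lowest of all 12. Group means were 70.7 ± 31.2 FPKM in TAC+pimobendan, 40.5 ± 35.4 in TAC+control, 73.6 ± 22.8 in Sham+pimobendan and 92.1 ± 39.7 in Sham+control (SD, n = 3 each).

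Jund, the JUN family gene known for steady expression in resting cells (NCBI Gene 16478, chr8:70695038-70700616), was the most even across mice. It had 37.5, 32.6 and 35.2 FPKM in TAC+pimobendan mice and 43.9, 30.4 and 54.4 FPKM in TAC+control mice. Sham+pimobendan mice had 45.2, 42.9 and 60.7 FPKM and Sham+control mice 45.0, 49.1 and 40.0 FPKM. All 3 TAC+pimobendan mice lay below all 3 mice of each sham group, and the TAC+control mice overlapped every other group. Jund overlaps the antisense gene Gm11175 (chr8:70699162-70700080, minus strand), and reads of the pair cannot be told apart without strand.

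Egr1 encodes a zinc finger factor induced through serum response factor and ERK (NCBI Gene 13653, chr18:34861207-34864956). It had 146, 141 and 262 FPKM in TAC+pimobendan mice and 44.8, 126 and 200.3 FPKM in TAC+control mice. Sham+pimobendan mice had 253, 174 and 255 FPKM, and Sham+control mice 271, 412 and 159 FPKM. The first and second TAC+control mice were the lowest of the 12, and the third lay inside the range of both sham groups. Group means were 183 ± 68.1 FPKM in TAC+pimobendan, 123.7 ± 77.8 in TAC+control, 227.2 ± 46.5 in Sham+pimobendan and 280.7 ± 126.9 in Sham+control (SD, n = 3 each).

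Ier2, a short nuclear factor gene of the same response (NCBI Gene 15936, chr8:84661331-84662852), had 73.7, 62.6 and 103 FPKM in TAC+pimobendan mice and 18.7, 40.1 and 59.9 FPKM in TAC+control mice. Sham+pimobendan mice had 96.3, 71.2 and 121 FPKM and Sham+control mice 81.6, 151 and 58.5 FPKM. All 3 TAC+pimobendan mice lay above all 3 TAC+control mice, with 62.6 and 59.9 FPKM as the nearest values. The third Sham+control mouse lay below the highest TAC+control mouse, so the control groups overlapped.

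Atf3, a stress-induced bZIP factor that can repress its targets (NCBI Gene 11910, chr1:191170296-191183333), had 8.92, 2.87 and 45.6 FPKM in TAC+pimobendan mice and 33.6, 2.93 and 142 FPKM in TAC+control mice. In the sham groups it had 58.3, 6.76 and 20.1 FPKM with pimobendan and 132, 91.1 and 7.13 FPKM without. The second mouse of both TAC groups stood below 3 FPKM, while the third of both stood above 40 FPKM, and every group overlapped every other. The first TAC+control mouse, lowest of the 12 for 5 other members, was in the middle for Atf3.

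Nr4a1 encodes an orphan nuclear receptor that is strongly induced by cAMP (NCBI Gene 15370, chr15:101252918-101274795). It had 32.3, 31.4 and 139.9 FPKM in TAC+pimobendan mice and 25.7, 22.7 and 338 FPKM in TAC+control mice. Sham+pimobendan mice had 220.3, 45.0 and 119 FPKM, and Sham+control mice 351, 327 and 31.6 FPKM. The 12 values left a gap between 45.0 and 119 FPKM, with mice of every group on each side of it.

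Myc, a growth factor-induced bHLH regulator of growth (NCBI Gene 17869, chr15:61985341-61990472), had 1.69, 1.62 and 1.75 FPKM in TAC+pimobendan mice and 2.42, 0.83 and 1.66 FPKM in TAC+control mice. It had 2.30, 3.27 and 3.71 FPKM in Sham+pimobendan mice and 1.92, 3.89 and 2.26 FPKM in Sham+control mice. All 6 sham mice lay above all 3 TAC+pimobendan mice. The first TAC+control mouse, at 2.42 FPKM, lay inside the range of both sham groups.

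By group mean, Sham+control was highest for 8 of the 10 members, and Sham+pimobendan was highest for Jund and Myc. TAC+control had the lowest mean for 5 members (Fos, Junb, Egr1, Ier2 and Myc) and TAC+pimobendan for 4 (Fosb, Jund, Atf3 and Nr4a1). Along each member's order of group means, neighbouring groups overlapped in range in all but a pair of cases. In Ier2 the ranges of TAC+pimobendan and TAC+control were apart, and in Myc those of TAC+pimobendan and Sham+control were apart.

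The spread between mice of the same group was measured as the SD of log2(FPKM + 1) pooled over the 4 groups, and ranked among the 11415 genes tested. Atf3 ranked 1 with an SD of 2.07, Nr4a1 ranked 2 with 1.68 and Fos ranked 3 with 1.46, against a median of 0.15 over all genes. Fosb ranked 12 (SD 1.23), Jun 43 (0.87), Junb 47 (0.84), Egr1 76 (0.71) and Ier2 123 (0.60). Myc ranked 683 (0.33) and Jund 1436 (0.26), both still above the median gene. Within the TAC+control group alone, the highest mouse exceeded the lowest 48.6-fold for Atf3, 20.3-fold for Fos, 19.6-fold for Fosb and 14.9-fold for Nr4a1. For Jund the same ratio was 1.79-fold. The SD of Fos was 1.08 in TAC+pimobendan, 2.05 in TAC+control, 0.75 in Sham+pimobendan and 1.61 in Sham+control.

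**Figure D2:**
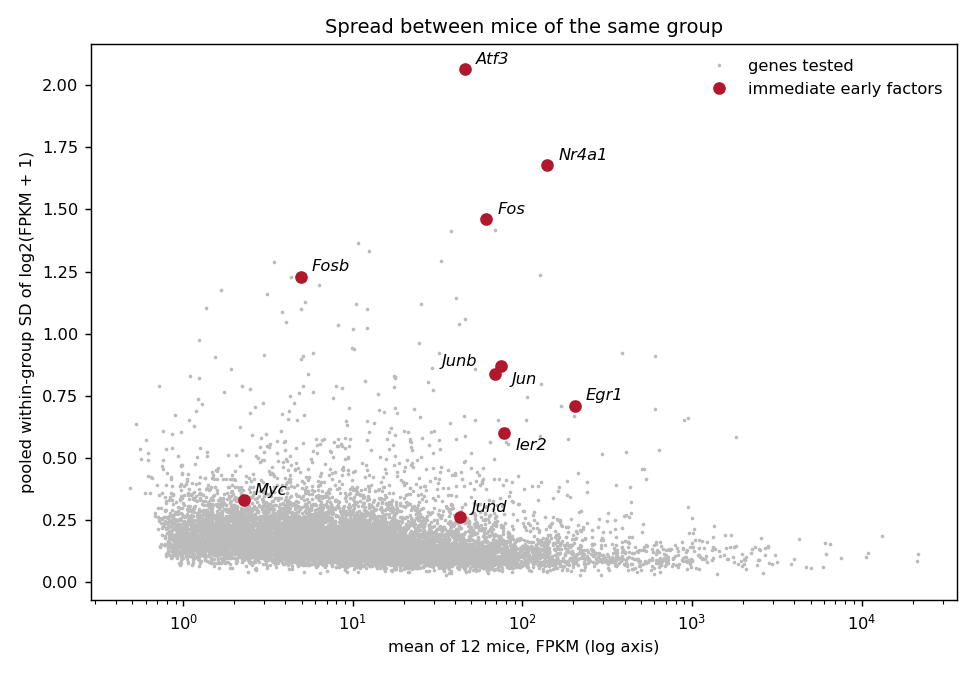
Pooled within-group SD of log2(FPKM + 1) against mean FPKM on a log axis, for the 11415 genes tested (grey) and the 10 immediate early factors (red). Atf3, Nr4a1 and Fos hold ranks 1, 2 and 3, and Jund and Myc lie near the bulk of the genes.

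Mice were placed in order by how far log2(FPKM + 1) lay from the 12-mouse mean, averaged over the members. The second and first Sham+control mice led with 1.28 and 0.98, followed by the third TAC+control mouse with 0.92. The first Sham+pimobendan, the third TAC+pimobendan and the third Sham+pimobendan mice followed with 0.54, 0.49 and 0.43. After a gap, the second Sham+pimobendan mouse stood at -0.44, the first TAC+pimobendan at -0.51, the third Sham+control at -0.66, the second TAC+pimobendan at -0.73, and the second and first TAC+control mice at -1.10 and -1.19. Every group therefore had mice on each side of the gap. For 6 members (Fos, Fosb, Jun, Junb, Egr1 and Nr4a1) the upper 6 mice all stood above the lower 6, while Atf3, Ier2, Jund and Myc crossed. The order was made from the values of these same members, so such a separation is partly built in. The second Sham+control mouse was among the 3 highest for 10 of 10 members, and the second TAC+control mouse among the 3 lowest for 10 of 10.

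**Figure D3:**
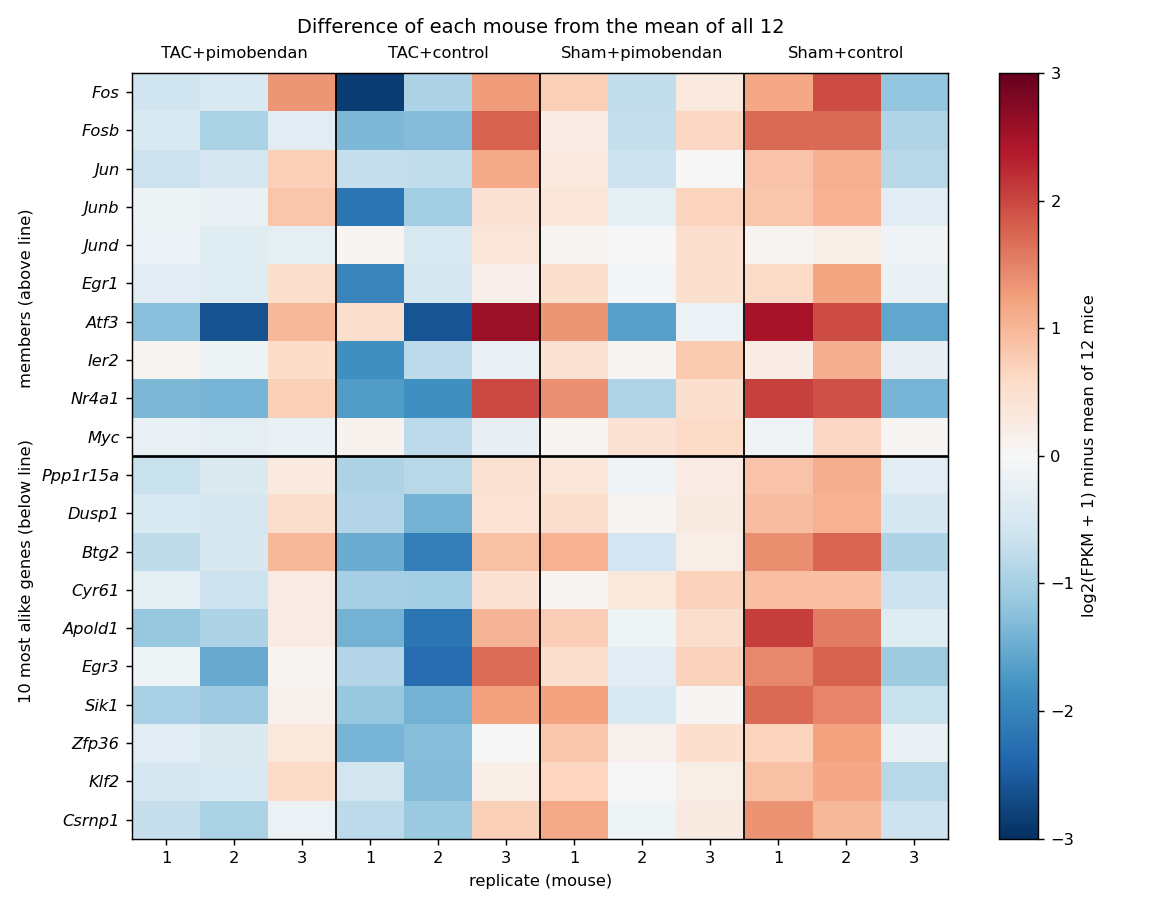
Difference of log2(FPKM + 1) in each mouse from the mean of all 12, for the 10 immediate early factors and the 10 genes most like them. Red is above and blue below the mean. Within each group some mice are red and others blue for most rows, with mean deviations over the members from 1.28 to -1.19.

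The members differed in how closely they followed this order. Pearson's r over the 12 mice between a member and the mean of the other members was 0.94 for Nr4a1, 0.90 for Fosb, 0.88 for Fos, 0.87 for Jun, 0.86 for Junb and 0.84 for Egr1. It was 0.76 for Ier2, 0.72 for Atf3, 0.60 for Jund and 0.40 for Myc. These values are a description, since the mice lay in a high and a low set and all genes of a mouse share a library.

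Among 7492 other genes with a mean of at least 5 FPKM, the 10 whose pattern over the 12 mice was most like the mean of the standardised members were ranked by Pearson's r. Ppp1r15a, which encodes a phosphatase subunit of the stress response, came nearest with an r of 0.97. It had 16.2, 19.0 and 32.3 FPKM in TAC+pimobendan mice, 13.4, 14.4 and 36.1 in TAC+control mice, 34.2, 24.2 and 31.2 in Sham+pimobendan mice and 47.9, 56.6 and 20.8 in Sham+control mice. Dusp1, the phosphatase that turns off MAP kinases, and the antiproliferative gene Btg2 each had an r of 0.95. Dusp1 had 109.8, 107 and 219 FPKM in TAC+pimobendan mice, 81.5, 56.0 and 200.3 in TAC+control mice, 217, 159 and 181 in Sham+pimobendan mice and 287, 312 and 107 in Sham+control mice. Cyr61 and Apold1 followed at 0.94, Egr3 and Sik1 at 0.93, Zfp36 at 0.92, Klf2 at 0.91 and Csrnp1 at 0.90. For 7 of these 10 genes the same 6 mice stood above the other 6, and Cyr61, Zfp36 and Csrnp1 were the exceptions. In limma's test 0 of the 10 were called in any comparison. These genes were picked by likeness over the same 12 mice, so the shared split and the lack of calls follow in part from that choice.

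Promoter sequence was at hand in RefSeq (GRCm38.p6) for 7 of the 10 members, taken as the 250 bases before 1 start that RefSeq annotates for each gene, so other starts are not covered. The windows of Jund and Nr4a1 lie inside the interval that the deposited table gives for those genes, that of Jund upstream of the gene in GENCODE, and the GENCODE interval of Atf3 begins upstream of its window. The windows shown are those of the 5 members that hold TGACG, the core of the cAMP response element that CREB and ATF proteins bind. They run 5′ to 3′ on the strand of the gene, and capitals mark TGACG or its reverse complement CGTCA, the EGR motif GCGNGGGCG on either strand, and the TATA box TATAAA on the gene's strand. Coordinates are chr12:85473640-85473889 for Fos (plus strand), chr7:19310046-19310295 for Fosb (minus strand), chr8:84978749-84978998 for Junb (minus strand), chr1:191183334-191183583 for Atf3 (minus strand) and chr15:101266596-101266845 for Nr4a1 (plus strand).
Fos: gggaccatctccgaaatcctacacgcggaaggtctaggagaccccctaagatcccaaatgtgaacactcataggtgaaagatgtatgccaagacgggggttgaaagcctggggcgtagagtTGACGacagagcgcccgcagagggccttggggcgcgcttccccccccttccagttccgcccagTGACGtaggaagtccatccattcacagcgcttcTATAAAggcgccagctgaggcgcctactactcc
Fosb: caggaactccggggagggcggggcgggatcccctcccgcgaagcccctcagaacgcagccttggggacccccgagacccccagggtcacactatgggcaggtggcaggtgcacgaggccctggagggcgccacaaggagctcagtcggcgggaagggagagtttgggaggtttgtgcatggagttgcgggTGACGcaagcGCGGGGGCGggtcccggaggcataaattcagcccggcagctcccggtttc
Junb: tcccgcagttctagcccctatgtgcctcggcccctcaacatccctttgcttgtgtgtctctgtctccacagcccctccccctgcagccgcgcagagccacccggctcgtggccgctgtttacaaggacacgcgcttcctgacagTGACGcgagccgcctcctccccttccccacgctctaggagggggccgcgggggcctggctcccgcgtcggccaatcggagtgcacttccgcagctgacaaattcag
Atf3: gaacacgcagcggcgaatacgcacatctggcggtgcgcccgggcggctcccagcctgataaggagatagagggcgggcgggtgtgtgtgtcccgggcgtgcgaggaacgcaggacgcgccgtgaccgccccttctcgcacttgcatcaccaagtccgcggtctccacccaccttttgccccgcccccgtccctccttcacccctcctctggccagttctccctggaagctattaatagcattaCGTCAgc
Nr4a1: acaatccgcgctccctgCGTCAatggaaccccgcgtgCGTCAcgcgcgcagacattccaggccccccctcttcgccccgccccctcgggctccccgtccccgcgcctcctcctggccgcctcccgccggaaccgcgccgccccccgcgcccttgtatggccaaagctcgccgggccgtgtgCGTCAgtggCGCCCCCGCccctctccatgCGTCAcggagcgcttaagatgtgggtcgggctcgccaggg

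TGACG on either strand was found in 5 of the 7 windows, and in 17.8% of the 32851 promoter windows of the table. The Nr4a1 window held 4 copies and the Fos window 2, and the window of Fos alone among the 7 held TATAAA, which 7.59% of all windows hold. The EGR motif lay in the windows of Fosb and Nr4a1, and in 4.70% of all windows. The CArG box of serum response factor, searched on both strands, was in 0 of the 7 windows and in 1.47% of all. Bases beyond these 250 were not searched, and Egr1, Ier2 and Myc had no window. The count therefore cannot tell whether the members have CArG boxes elsewhere. The windows of Jun and Jund held none of these motifs. The motifs searched do not overlap in these windows. A match describes letters and no binding was measured here.

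TAC+control was set against Sham+control to ask how the loaded ventricle differs without the drug. Fold changes are differences of mean log2(FPKM + 1), tested with limma in a fit of all 12 mice, and a gene was called at a Benjamini-Hochberg adjusted p under 0.05 over all genes tested. All 10 members had negative values, under each of the 3 other scalings tried as well, where 65.1% of all genes were negative (48.3% with median-ratio scaling, 74.7% with TPM and 48.2% with quantile normalization). In limma's test 0 of 10 were called, as were 0% of all genes. Without adjustment 3 members had p under 0.05, all lower in TAC+control, where 6.83% of all genes were lower at that p and 8.33% in either direction. Ier2 had a log2 fold change of -1.30 ± 0.39 (SE; limma adjusted p = 0.471), Egr1 of -1.31 ± 0.46 (adjusted p = 0.552) and Junb of -1.44 ± 0.55 (adjusted p = 0.561). Ranges of TAC+control and Sham+control mice overlapped in each of the 10, while 9.74% of all genes were lower in TAC+control without overlap.

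The widest members had the least certain differences in this comparison. Fos had a log2 fold change of -1.48 ± 0.95 (95% confidence interval -3.53 to 0.57; limma adjusted p = 0.696) and Nr4a1 of -1.38 ± 1.09 (adjusted p = 0.745). Atf3 had -0.78 ± 1.34, with an interval from -3.68 to 2.11, which spans large changes in either direction. Fosb had -1.12 ± 0.80, Jun -0.47 ± 0.56 and Myc -0.49 ± 0.23. For Jund the value was -0.09 ± 0.18, with a narrow interval of -0.48 to 0.30. The median over the members was -1.21, beside -0.06 over all genes tested. Leaving out the third TAC+control mouse or the third Sham+control mouse raised the members at unadjusted p under 0.05 to 6. Leaving out the second Sham+control mouse or the first TAC+control mouse lowered them to 1 and 2. The share of all genes at that p is not given for these fits, so the member counts cannot be set against it.

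Cell type markers also differed between these groups. All 5 erythroid markers tested were higher in TAC+control at unadjusted p, with a summed level of 4199 to 6702 FPKM in TAC+control mice and 1553 to 3063 FPKM in Sham+control mice over the 6 markers in the table. The 7 endothelial markers all had negative fold changes, 3 of them at unadjusted p, and summed to 285 to 339 FPKM in TAC+control mice and 336 to 395 FPKM in Sham+control mice. The 6 smooth muscle and pericyte markers were negative as well, 4 of them at unadjusted p, with sums of 182 to 217 and 192 to 286 FPKM in TAC+control and Sham+control mice. No marker of these lists was at 0 in all mice, and 0 were called. Their part in the values of the members was not tested.

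**Figure D4:**
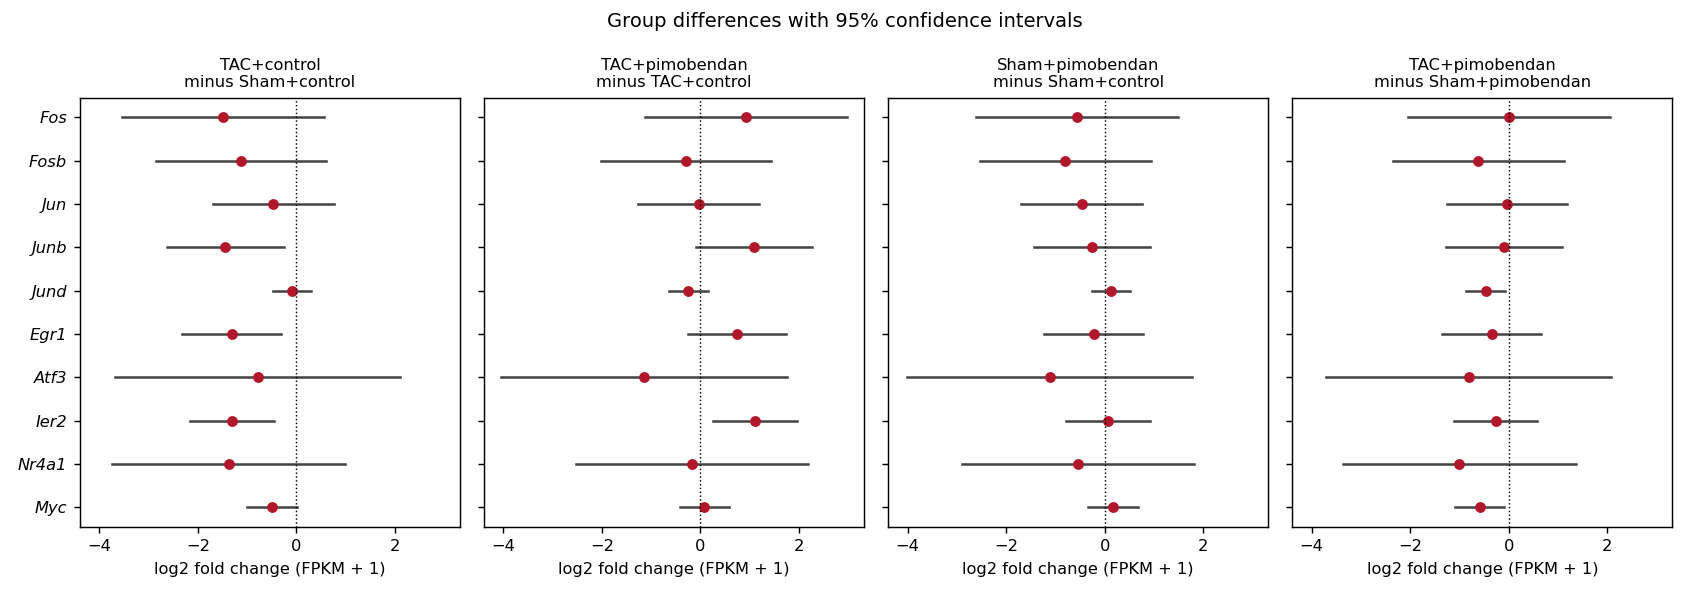
Log2 fold change of FPKM + 1 for the 10 immediate early factors in 4 comparisons, with 95% confidence intervals from limma. All 10 points lie left of 0 for TAC+control minus Sham+control, and the intervals of Atf3, Nr4a1 and Fos are the widest, at most from -4.05 to 1.75.

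TAC+pimobendan was set against TAC+control to ask what the drug does in the loaded ventricle. The members lay on either side, with 5 positive and 5 negative values, against 4 and 6 under median-ratio scaling or quantile normalization and 6 and 4 with TPM. In limma's test 0 of 10 members were called, where 3.27% of all genes were (360 higher and 13 lower). Ier2 came nearest, with a log2 fold change of 1.11 ± 0.39 (limma adjusted p = 0.101), and was the 1 member at unadjusted p under 0.05, where 26.6% of all genes stood and 22.3% were higher. Its groups did not overlap, nor did those of 23.3% of all genes in that direction. The adjusted p of Ier2 ran from 0.0664 to 0.165 over the other settings with all mice and did not reach the threshold in any of them. Without the first TAC+control or the third TAC+pimobendan mouse, 0 members stood at unadjusted p under 0.05, and the share of all genes is not given for these fits.

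Junb had a log2 fold change of 1.09 ± 0.55 (limma adjusted p = 0.222), Egr1 of 0.74 ± 0.46 (adjusted p = 0.327) and Fos of 0.92 ± 0.95 (adjusted p = 0.568) in the same comparison. Atf3 had -1.15 ± 1.34, Fosb -0.30 ± 0.80, Jund -0.25 ± 0.18 and Nr4a1 -0.17 ± 1.09. Jun at -0.04 ± 0.56 and Myc at 0.07 ± 0.23 were close to 0, with intervals of -1.26 to 1.18 and -0.43 to 0.57. The members' median was 0.02, beside 0.10 over all genes. Median-ratio scaling and quantile normalization moved the median of all genes by -0.10 and -0.12, to -0.01 and -0.02. This comparison and the preceding one use the same 3 TAC+control mice, so their values are not independent.

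Several of these values rested on the third TAC+control mouse. Without it 9 of 10 members were positive and Jund alone was negative, 4 members had unadjusted p under 0.05, and 0 were called. Of all genes 0 were called as well, and their median was 0.11, beside 0.10 with all mice. With all mice 66.0% of all genes were positive and 26.6% had unadjusted p under 0.05. These shares are not given for the fit without the third TAC+control mouse, so the member counts cannot be set against them. Without that mouse Fos stood at 1.97, Junb at 1.77 (limma adjusted p = 0.102) and Ier2 at 1.47 (adjusted p = 0.102). Egr1 stood at 1.21 and Nr4a1 at 1.08. Atf3 stood at 0.06, Fosb at 0.73 and Jun at 0.58. Leaving out the first or the second TAC+pimobendan mouse gave 7 positive and 3 negative values.

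**Figure D5:**
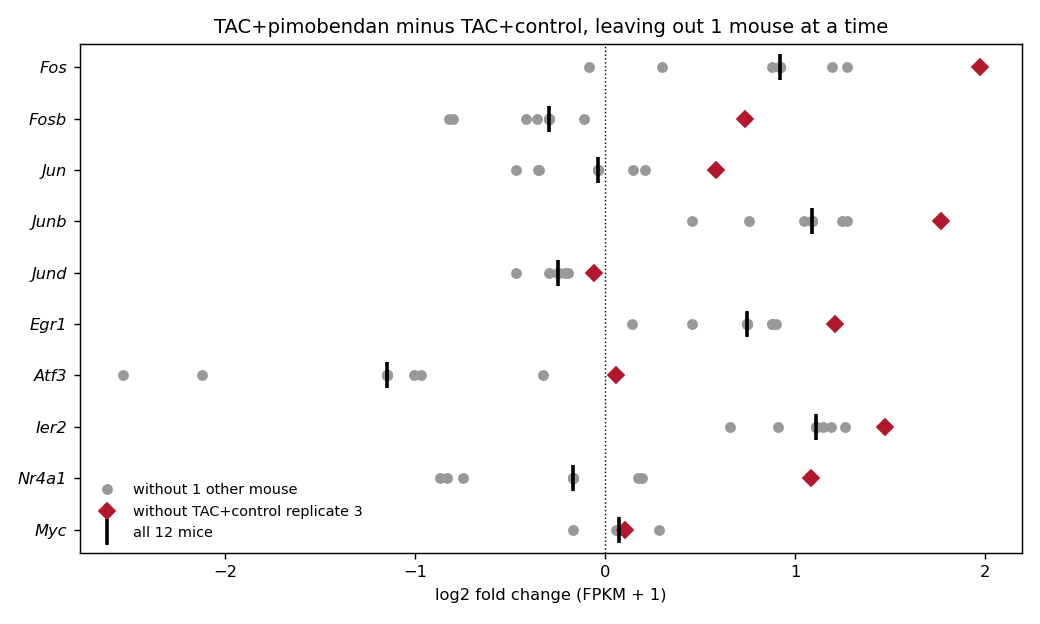
Log2 fold change of FPKM + 1 for TAC+pimobendan minus TAC+control with all 12 mice (black bars) and after leaving out each mouse in turn (points, with the third TAC+control mouse in red). Without that mouse Nr4a1 moved to 1.08 and Fosb to 0.73, both below 0 with all mice.

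Erythroid markers and base composition also differed in this comparison. The 5 erythroid markers tested all had negative values and 1 was called lower, with sums of 1142 to 2281 FPKM in TAC+pimobendan mice and 4199 to 6702 FPKM in TAC+control mice. Of 6 heart muscle markers 2 were called lower, with sums of 28214 to 33286 and 34375 to 38468 FPKM in TAC+pimobendan and TAC+control mice. By sign 4 of the 6 were negative and 2 positive, with a median of -0.08. Actc1, the most abundant of them, had 9044 to 12620 FPKM in TAC+pimobendan mice and 14524 to 17412 FPKM in TAC+control mice. For each mouse, GC content was correlated across genes, which are not replicates, with the difference from the 12-mouse mean. Spearman's rho was -0.19, -0.51 and -0.52 in TAC+pimobendan mice and 0.12, 0.0055 and 0.28 in TAC+control mice. In Sham+control mice it was -0.34, 0.08 and 0.45, so it also varied widely between mice of the same group. GC content of the members' longest transcripts ran from 51.9% for Fos to 67.2% for Jund, all above the median of 50.1% over genes tested. The part of these measures in the members' values was not tested.

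Sham+pimobendan was set against Sham+control as the effect of the drug without load. Values were positive for 3 members and negative for 7, and 0 of 10 were called, as were 0% of all genes. At unadjusted p under 0.05 there were 0 members and 4.54% of all genes. Atf3 had -1.12 ± 1.34, Fosb -0.80 ± 0.80, Fos -0.56 ± 0.95, Nr4a1 -0.54 ± 1.09 and Jun -0.47 ± 0.56. Junb at -0.26 ± 0.55, Egr1 at -0.22 ± 0.46, Ier2 at 0.07 ± 0.39, Jund at 0.13 ± 0.18 and Myc at 0.17 ± 0.23 were smaller. The limma adjusted p ran from 0.910 to 0.990. The 95% confidence interval was -0.25 to 0.52 in Jund, the narrowest, -0.78 to 0.92 in Ier2 and -4.01 to 1.78 in Atf3, the widest. Large changes in either direction thus lay inside the wider intervals. All 5 erythroid markers had negative values here as well, with sums of 452 to 1906 FPKM in Sham+pimobendan mice and 1553 to 3063 FPKM in Sham+control mice.

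TAC+pimobendan was set against Sham+pimobendan to ask how load acts in treated mice. All 10 values were negative with FPKM, but 2 (Fos and Jun) were positive with TPM and with quantile normalization. In limma's test 0 of 10 members were called, where 4.89% of all genes were (530 higher and 28 lower). Jund had a log2 fold change of -0.47 ± 0.18 (limma adjusted p = 0.140) and Myc of -0.59 ± 0.23 (adjusted p = 0.149). These 2 members had unadjusted p under 0.05, as had 22.9% of all genes in either direction. In both genes all 3 TAC+pimobendan mice lay below all 3 Sham+pimobendan mice, as in 9.35% of all genes, and 6.09% of all genes were lower at unadjusted p under 0.05. These were also the 2 members with the smallest spread between mice on the log2(FPKM + 1) scale. The pseudocount of 1 narrows both the spread and the fold changes of low genes such as Myc. Over the other settings with all mice the value of Myc ran from -0.81 to -0.59. Without the third Sham+pimobendan or the second TAC+pimobendan mouse 0 members stood at unadjusted p under 0.05, and without the second Sham+pimobendan mouse 1 did. The share of all genes at that p is not given for these fits.

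The remaining members had values near 0 or wide errors in treated mice. Nr4a1 had -1.0 ± 1.09, Atf3 -0.81 ± 1.34 and Fosb -0.62 ± 0.80. Egr1 had -0.35 ± 0.46, Ier2 -0.27 ± 0.39, Junb -0.09 ± 0.55, Jun -0.03 ± 0.56 and Fos -0.00016 ± 0.95. The median of the members was -0.41, beside -0.01 over all genes. Of 7 endothelial markers 5 were negative and 2 were called lower, with sums of 309 to 347 FPKM in TAC+pimobendan mice and 329 to 453 FPKM in Sham+pimobendan mice. The GC rho was -0.19, -0.51 and -0.52 in TAC+pimobendan mice and 0.14, 0.36 and 0.52 in Sham+pimobendan mice, and its part was not tested.

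The interaction, which is the TAC effect under pimobendan minus the TAC effect without it, tests whether the drug effect differs between loaded and unloaded hearts. It was positive for 7 members and negative for 3, against 8 and 2 with TPM, and 0 of 10 were called, as were 0% of all genes. No member had unadjusted p under 0.05, where 20.3% of all genes did. The count was 4 members without the third TAC+control mouse, 2 without the third Sham+control mouse and 1 without the second TAC+control mouse. The share of all genes at that p is not given for these 3 fits, so their member counts cannot be read against it. Ier2 had 1.04 ± 0.55 (limma adjusted p = 0.318), Junb 1.35 ± 0.77 (adjusted p = 0.353), Egr1 0.97 ± 0.65 (adjusted p = 0.438) and Fos 1.48 ± 1.34 (adjusted p = 0.574). Jund had -0.38 ± 0.25, Myc -0.10 ± 0.33 and Atf3 -0.03 ± 1.89. The values of Fosb, Jun and Nr4a1 were 0.50 ± 1.13, 0.43 ± 0.80 and 0.38 ± 1.54. The TAC effect thus was negative for Ier2, Junb and Egr1 without the drug and closer to 0 with it, but the difference between the effects passed the test for none of them.

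Over 7 lists of genes around the members in the pathway, 87 genes were tested. For TAC under pimobendan 4 of them (4.6%) were called, beside 4.89% of all genes, and for the drug after TAC 2 (2.3%), beside 3.27%. In each of the other 2 group comparisons 0 were called, as of all genes. Of 26 other primary response genes (among them Egr2, Nr4a2, Ier3, Klf4, Socs3 and Per1), 23 had negative values in TAC+control minus Sham+control, or 22 with median-ratio scaling and quantile normalization, beside the shares of all genes given above. Their median was -0.73 and 0 were called in it. The list also holds Dusp1, Btg2, Cyr61, Egr3, Sik1, Zfp36 and Klf2, described above as most like the members. All of these were negative in this comparison, so the list and the most alike genes are not separate results. Gadd45b, a stress gene of the GADD45 family, had -1.14 ± 0.26 there (limma adjusted p = 0.408). The list had 16 positive of 26 for the drug after TAC, where 66.0% of all genes were positive. It had 7 of 26 for the drug after sham, beside 53.7% of all genes, and 5 of 26 for TAC under pimobendan, beside 49.0%. Its 1 call was Nfkbia, the inhibitor of NF-kappaB, in TAC under pimobendan. Nfkbia had 26.3, 25.2 and 25.7 FPKM in TAC+pimobendan mice and 48.4, 46.0 and 35.8 FPKM in Sham+pimobendan mice, with no overlap (log2 fold change -0.72 ± 0.15, limma adjusted p = 0.0314). Without the drug it had 27.0, 21.7 and 26.6 FPKM in TAC mice and 47.3, 41.3 and 31.6 FPKM in sham mice, again without overlap (-0.64 ± 0.15, limma adjusted p = 0.408).

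Of 14 other AP-1, ATF and small Maf genes tested, 13 were negative in TAC+control minus Sham+control (median -0.20), but 10 with median-ratio scaling and with quantile normalization. For the drug after TAC 9 were positive, against 7 and 8 under those scalings. The 1 call was Creb1, the cAMP-activated factor, in TAC under pimobendan. Creb1 had 2.33, 3.29 and 3.34 FPKM in TAC+pimobendan mice and 1.46, 1.94 and 1.37 FPKM in Sham+pimobendan mice, and the groups did not overlap (log2 fold change 0.62 ± 0.16, limma adjusted p = 0.0498). Without the drug it had 1.35, 2.45 and 2.09 FPKM in TAC mice and 2.56, 2.09 and 1.86 FPKM in sham mice. Both of these groups overlapped the TAC+pimobendan mice. Maf, a large Maf factor, had 0.47 ± 0.13 for the drug after TAC (limma adjusted p = 0.0600) and -0.48 ± 0.13 for TAC without drug (adjusted p = 0.461).

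Among 11 genes of serum response factor, its ternary complex partners and coactivators, Rps6ka3, which encodes the kinase RSK2 downstream of ERK, was called in 2 comparisons. It had 4.64, 6.53 and 6.97 FPKM in TAC+pimobendan mice, 3.25, 3.46 and 3.15 in TAC+control mice and 3.28, 4.17 and 2.59 in Sham+pimobendan mice. The TAC+pimobendan mice lay above all mice of both other groups. Its log2 fold change was 0.70 ± 0.17 against TAC+control (limma adjusted p = 0.0482) and 0.70 ± 0.17 against Sham+pimobendan (adjusted p = 0.0408). Srf itself had -0.45 ± 0.15 for the drug after TAC (limma adjusted p = 0.0958). Of 13 MAP kinase genes upstream of the members 0 were called in any comparison, with unadjusted p under 0.05 for 0, 3, 0 and 3 of them in the 4 group comparisons as ordered above. Of all genes 8.33%, 26.6%, 4.54% and 22.9% stood at that p in the same comparisons. Map2k2, which encodes MEK2, had -0.31 ± 0.10 and Braf 0.37 ± 0.13 for the drug after TAC (limma adjusted p = 0.0708 and 0.1001).

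Of 9 EGR corepressor and MYC partner genes tested, 9 were positive for the drug after TAC, with a median of 0.16 beside 0.10 over all genes, of which 66.0% were positive. Under median-ratio scaling 5 and under quantile normalization 6 of the 9 were positive, so this sign count depended on the scaling. The 1 call was Mnt, which encodes a repressor that competes with MYC for MAX. Mnt had 4.73, 5.27 and 4.50 FPKM in TAC+pimobendan mice and 2.59, 3.28 and 3.54 FPKM in TAC+control mice, without overlap (log2 fold change 0.50 ± 0.11, limma adjusted p = 0.0432). Nab1, an EGR corepressor, had 0.55 ± 0.15 in TAC under pimobendan (limma adjusted p = 0.0521). Of 7 genes known as AP-1 targets 0 were called in any comparison and all 7 were negative in TAC under pimobendan with each scaling (median -0.31), beside 51.0% of all genes, with Hmox1 at -0.50 ± 0.21 and Timp1 at -0.31 ± 0.33 (limma adjusted p = 0.183 and 0.609). Of 7 inducible heat shock genes 6 were negative for the drug after TAC (median -0.71), or 7 with median-ratio scaling, beside 34.0% of all genes, with Hspb1 at -0.71 ± 0.19 (limma adjusted p = 0.0523) and 0 called. Hsp90aa1 was called in TAC under pimobendan, with 21.4, 34.1 and 37.1 FPKM in TAC+pimobendan mice and 16.0, 14.7 and 16.8 FPKM in Sham+pimobendan mice, which did not overlap (0.89 ± 0.23, limma adjusted p = 0.0455). Without the drug it had 24.95, 31.9 and 27.05 FPKM in TAC mice and 39.0, 24.7 and 19.5 FPKM in sham mice. Both of these groups overlapped the TAC+pimobendan mice. Calls in TAC under pimobendan disappeared, with all other calls of that comparison, when low genes were kept or when the groups compared were fitted alone, where 0 genes were called in all. The same held without the second or the third mouse of TAC+pimobendan or of Sham+pimobendan. Calls for the drug after TAC disappeared under these 2 settings, under median-ratio scaling and quantile normalization, and without the third TAC+control or the second TAC+pimobendan mouse.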

How the data were processed

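Left ventricular RNA of 12 mice was sequenced from oligo(dT)-selected, fragmented messenger RNA on DNA nanoballs, per the labels' protocols. The submitters' processing notes list the build GRCm38, RSEM 1.2.12, the aligners Bowtie2 2.2.5 and HISAT2 2.0.4, and DESeq2 1.4.5, but give no roles. The authors deposited FPKM and TPM per gene and mouse, rounded to 2 decimals, without counts, so precision by depth cannot be given. Values were put on the log2 scale with a pseudocount of 1 and fitted by limma 3.58.1 under R 4.3.3 (trend, 1 mean per group, 8 residual degrees of freedom), and the deposited TPM as an alternative. A filter of 1 FPKM or more in 3 mice or more left 11415 genes to test, with Benjamini-Hochberg adjustment over all of them. The script was tested on simulated data. Groups follow the labels, and each mouse is a separate replicate. Few pairs of same-numbered mice deviated together (4 of 18 pairs had r over 0.1), so numbers were not used as pairs. Same-numbered TAC+control and TAC+pimobendan mice had r of 0.154, 0.208 and 0.101. Alternatives were other scalings, TPM, a pseudocount of 0.1, other filters, fits of the groups compared alone, a replicate block, and leaving out each mouse. Genes named were all 10 members, the called genes of 7 pathway lists with the 2 of smallest p in each, and the 10 genes most like the members. Members and lists were chosen with earlier results of these data known, so they support nothing by themselves. Gene positions are those of the deposited table; GENCODE M21 and RefSeq (GRCm38.p6) supplied overlaps, GC content (11334 of 11415 genes) and promoters.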

Additional observations from a re-analysis of the deposited data

Results flagged for a closer look

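The log2 fold change of Egr1 with pimobendan was 0.74 ± 0.46 after TAC and -0.22 ± 0.46 after sham surgery (limma adjusted p = 0.327 and 0.964), and neither was called. Without the second Sham+control mouse the value after sham was 0.11. All 3 TAC+pimobendan mice lay above the TAC+control mean of 123.7 FPKM, and all 3 Sham+pimobendan mice lay below the Sham+control mean of 280.7 FPKM. The share of all genes with such a pattern is not given. The groups overlapped all the same: the third TAC+control mouse, at 200.3 FPKM, lay above 2 of the 3 TAC+pimobendan mice, and the third Sham+control mouse, at 159 FPKM, lay below every Sham+pimobendan mouse. The difference between both drug effects was 0.97 ± 0.65 on the log2 scale and did not pass the test (limma adjusted p = 0.438). It lay between 0.36 and 1.43 when each mouse was left out in turn. Egr1 was flagged for this difference itself, and Fos, Junb and Ier2 had larger estimates of it (1.48, 1.35 and 1.04). Groups of 3 mice are too small for a check of single outlying mice.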

How the results depend on the processing

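No immediate early factor was called in any comparison under any of the alternatives run. For TAC+control minus Sham+control the fit of the groups compared alone called 2 genes, against 0 in the fit of all mice. For TAC+pimobendan minus TAC+control, where 373 genes were called, TPM called 1170, median-ratio scaling, quantile normalization, no filter and the groups compared alone each called 0, and the replicate block called 1. For TAC+pimobendan minus Sham+pimobendan, where 558 were called, median-ratio scaling called 356, quantile normalization 298, and no filter, the groups compared alone and the replicate block 0 each. The replicate block called 0 members. Replicate numbers are not known to pair the mice: same-numbered mice had r between -0.44 and 0.25. The cause of these shifts was not tested. Leaving out each mouse in turn gave 0 to 4 genes called for TAC+control minus Sham+control, 0 to 1187 for TAC+pimobendan minus TAC+control, 0 to 1222 for TAC+pimobendan minus Sham+pimobendan and 0 to 772 for the interaction. The highest of the last 3 counts came without the first TAC+pimobendan mouse. In TAC+pimobendan minus TAC+control, 0 genes were called without the third TAC+control or the second TAC+pimobendan mouse, 1 without the second Sham+control or the second Sham+pimobendan mouse, and 3 without the first TAC+control or the third TAC+pimobendan mouse. In TAC+pimobendan minus Sham+pimobendan, 0 were called without the second or the third mouse of either group.

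A few log2 fold changes close to 0 turned sign with the scaling. Myc, in TAC+pimobendan minus TAC+control, stood at -0.0012 with median-ratio scaling and -0.13 with quantile normalization, and Jun at 0.034 with TPM. For TAC+pimobendan minus Sham+pimobendan, Fos stood at 0.049 with TPM and 0.040 with quantile normalization, and Jun at 0.014 and 0.0067. The interaction of Atf3 was 0.048 with TPM.

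Leaving out each mouse in turn turned the sign of more values, which then ranged as follows. For TAC+control minus Sham+control, Atf3 ran from -2.04 to 0.61 and Jund from -0.28 to 0.13. For TAC+pimobendan minus TAC+control, Fos ran from -0.082 to 1.97, Fosb from -0.82 to 0.73, Jun from -0.47 to 0.58, Atf3 from -2.54 to 0.057, Nr4a1 from -0.87 to 1.08 and Myc from -0.17 to 0.28. For Sham+pimobendan minus Sham+control, Fos ran from -1.46 to 0.092, Junb from -0.68 to 0.0021, Jund from -0.017 to 0.23, Egr1 from -0.58 to 0.11, Ier2 from -0.24 to 0.44 and Nr4a1 from -1.67 to 0.065. For TAC+pimobendan minus Sham+pimobendan, Fos ran from -0.62 to 0.35, Jun from -0.47 to 0.21, Junb from -0.43 to 0.11 and Atf3 from -1.78 to 0.010. In the interaction, Fosb ran from -0.023 to 1.53, Jun from -3.42e-05 to 1.05, Atf3 from -1.42 to 1.22, Nr4a1 from -0.32 to 1.63 and Myc from -0.34 to 0.11. For TAC+control minus Sham+control, all members but Atf3 and Jund kept a negative sign whichever mouse was left out. For TAC+pimobendan minus TAC+control, Ier2, Egr1 and Junb kept a positive sign and Jund a negative one, and the other members turned sign. Both comparisons use the same TAC+control mice, so these signs are not independent. Without counts, the share of the spread that comes from depth cannot be given, and 3 mice a group leave wide intervals.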
